A study of Mus musculus with 31 samples.

Results

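Knockout of the chemokine gene *Cxcl5* was compared with WT in 3D-cultured Panc02 cells, a mouse pancreatic adenocarcinoma line, across all genes with enough counts. The comparison used the 3 libraries labelled 3D *Cxcl5*-/- and the 3 libraries labelled 3D WT, which are 6 of the 31 libraries of the series, and tested 21367 of the 56980 genes in the count table. In the knockout, Cas9 and 1 guide RNA against *Cxcl5* had been delivered by lentivirus and the cells selected with puromycin, while WT is the line that the labels call WT. Whether the knockout was a single clone or a pool, and whether WT cells carried an empty vector, is not given in the sources used here. Both groups were grown as spheroids embedded in Matrigel, a basement membrane gel, in complete DMEM and without macrophage-conditioned medium. The same genotypes in 2D culture, with 3 libraries each, and 2 WT and 2 *Cxcl5*-/- libraries of 3D-cultured cells from a second table, made for an experiment that restored *Hif1a* or *Myc*, are given beside the results. The labels of that second table, called the rescue table here, number the cell line on from sample to sample, while the study's methods name Panc02. The study's methods state in general that biological replicates and repeated experiments were used, but neither they nor the labels say how the libraries of a group relate to these. The p-values therefore measure the spread between these libraries, which may be technical.

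CXCL5 is a secreted chemokine that attracts neutrophils through the receptor CXCR2. The study asked how its loss changes metabolism in 3D, and pointed to 2 regulators. HIF1A pairs with ARNT on ACGTG sequences of its targets and is degraded after prolyl hydroxylases mark it when oxygen is present, and many glycolytic, angiogenic and mitophagy genes follow it. MYC pairs with MAX on E-boxes and raises ribosome production and nucleotide synthesis, while the MXD proteins compete with it for MAX.

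The libraries held between 46973008 and 66197643 counts in 3D WT and between 47133928 and 62626490 in the group labelled 3D *Cxcl5*-/-. Log2 CPM correlated at Pearson r between 0.973 and 0.979 within the groups, and between 0.918 and 0.939 across them, over genes, which are not independent replicates. Predicted genes over satellite-like repeats took between 6.97% and 16.0% of the counts in 3D WT, against at most 0.478% in the labelled *Cxcl5*-/- libraries. Their part in the results was not tested, and scaling by library totals in place of TMM gave 7671 genes higher and 2445 lower, in place of 4218 and 5397. Replicate 1 of the labelled *Cxcl5*-/- group had the highest shares of *Rn7s1* and *Rn7sk*. They took 7.28% and 4.21% of its counts, against at most 6.55% and 2.54% in the other 5 libraries. Without it 4030 genes were higher and 5948 lower.

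The targeted gene went against its label in 3D. *Cxcl5* (ENSMUSG00000029371, chr5:90759360-90761624, plus strand, GRCm38) was at 28.5, 24.5 and 28.04 CPM of the TMM-scaled library in 3D WT. The group labelled 3D *Cxcl5*-/- had 65.5, 40.9 and 45.4 CPM. All 3 labelled libraries were above all 3 WT libraries (log2 fold change 0.91 with an SE of 0.14, edgeR adjusted p 0.000173). In 2D the libraries labelled *Cxcl5*-/- were at 37.4, 32.7 and 32.8 CPM, below the 45.6, 47.3 and 49.1 CPM of 2D WT, with an adjusted p of 0.0704 by edgeR, and the effects in 3D and in 2D differed by 1.37 on the log2 scale (adjusted p = 0.000267, edgeR interaction). In the rescue table *Cxcl5* was lower in *Cxcl5*-/-, at 36.6 and 40.2 CPM against 64.2 and 67.7 CPM in WT. A gene count does not show whether a Cas9 edit is present, since transcripts with a frameshift can still be counted, and the study checked the knockout by immunoblot. Because of this result the group is called by its label throughout, and "rose" and "fell" mean that a gene was higher or lower in this labelled group relative to 3D WT, past an adjusted p of 0.05 in edgeR's quasi-likelihood test.

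**Figure D1:**
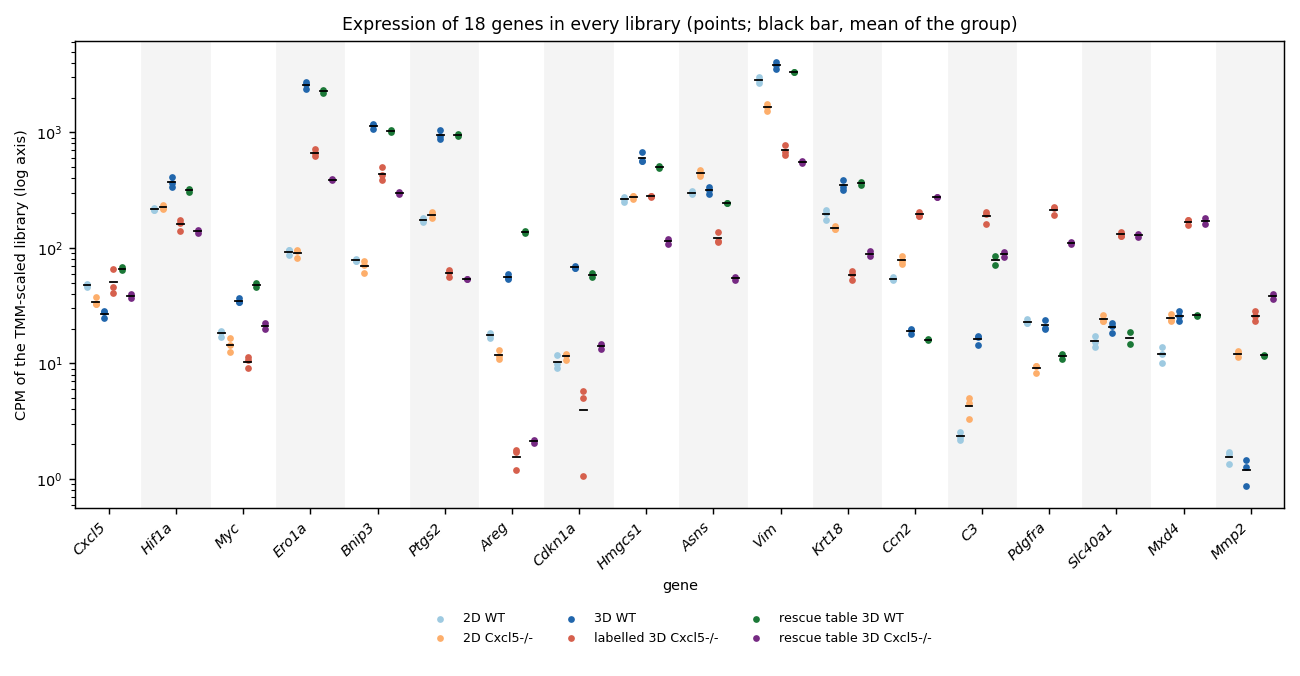
Expression of 18 genes named in the text in every library of the 2D and 3D groups and of the rescue table, as CPM of the TMM-scaled library on a log axis, each table scaled on its own. Points are libraries and black bars are group means. All 3 libraries of the labelled 3D group exceed 3D WT at *Cxcl5*, and both *Cxcl5*-/- libraries of the rescue table lie below WT there, while the other genes shown differ the same way in both 3D comparisons, except that the rescue groups overlap at *C3*.

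Across all genes 45% were called, with 19.7% higher and 25.3% lower in the labelled *Cxcl5*-/- libraries. Among protein-coding genes alone 53.7% were called and 32.3% fell. Of the 4218 genes that rose 2096 did so by more than 1 on the log2 scale, as did 1675 of the 5397 that fell, and at an unadjusted p under 0.05 there were 5005 and 6063. The middle of the distribution lay near 0, with a median log2 fold change of −0.04 over all genes, which scaling by library totals moved to 0.35. Most of the called decreases were of less than a factor of 2, since 3722 of them lay between −1 and 0. The numbers were close only in the far tails, with 136 genes rising by more than 5 and 133 falling by more than 5 on the log2 scale. Changes of size 2 to 3 were increases at 453 genes and decreases at 236. Those of size 3 to 5 were increases at 230 genes and decreases at 178. Gene lists are therefore described by their called members and by their median relative to the −0.04 of all genes, with no test of the list. The rule that named list members required a call and no overlap of the groups. Separation of the groups is therefore no added support for the genes it named. In bulk RNA, fewer cells of a type and less RNA per cell cannot be told apart.

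**Figure D2:**
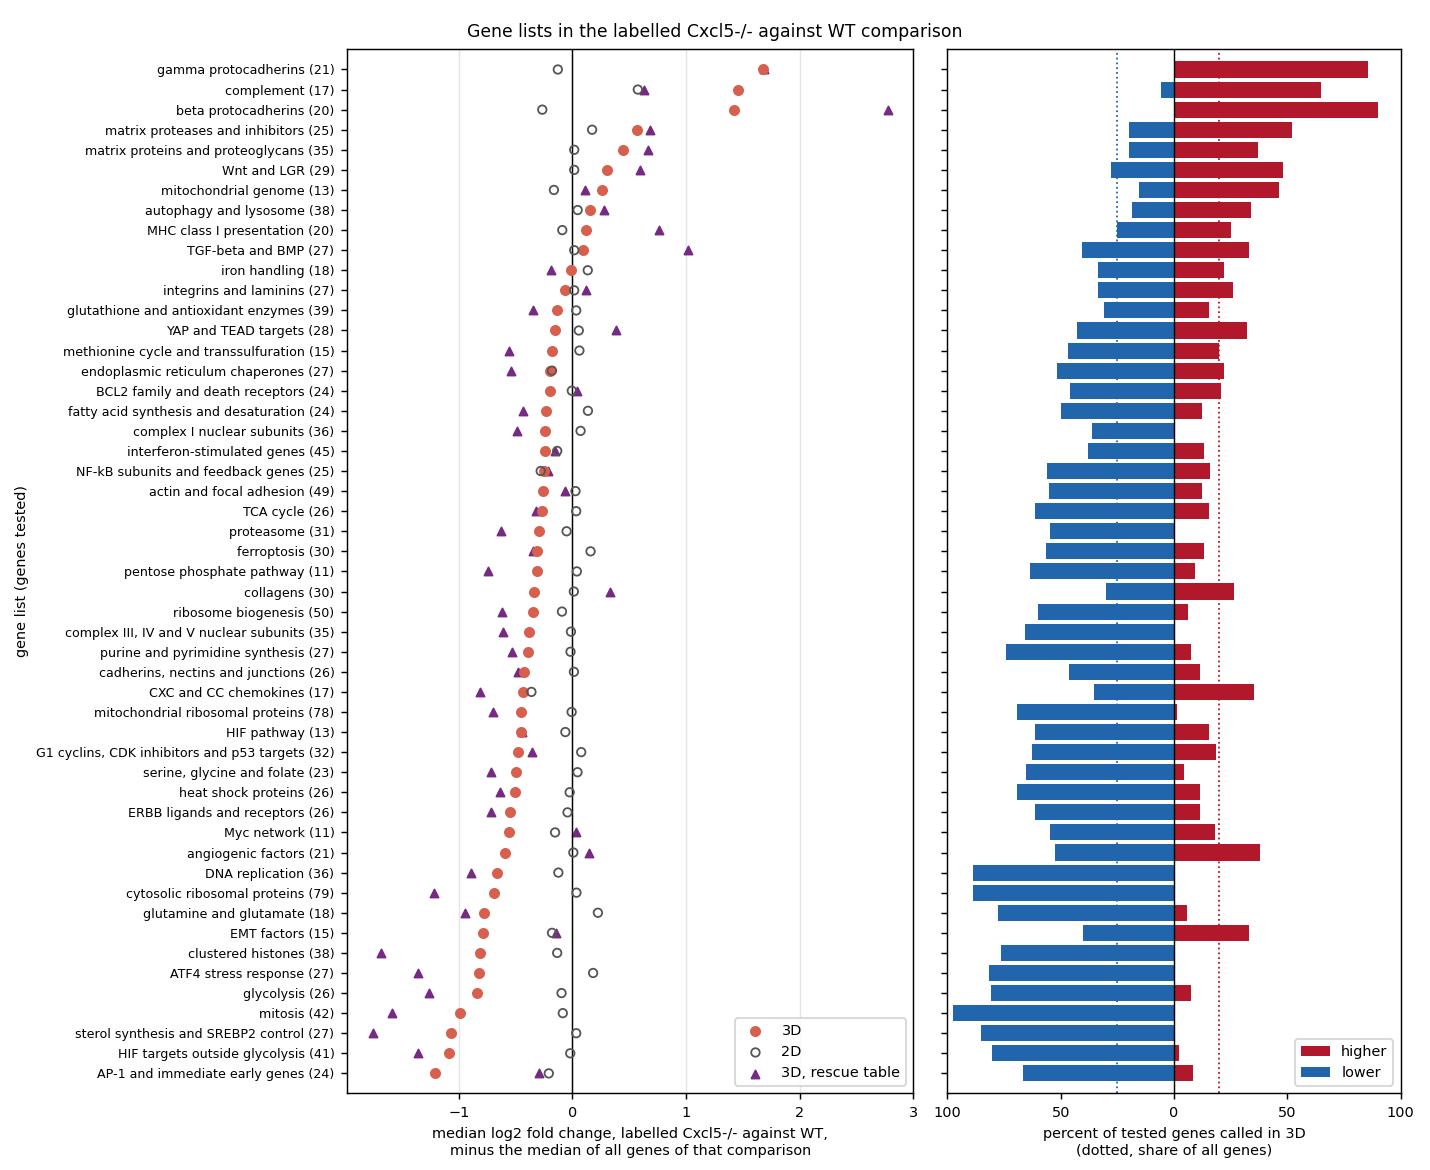
Gene lists with at least 10 tested genes, ordered by their median log2 fold change in 3D. Left, the list's median in the libraries labelled *Cxcl5*-/- against WT minus the median of all genes, in 3D (filled circles), in 2D (open circles) and in the rescue table (triangles). Right, the percent of tested genes called higher (red) and lower (blue) in 3D, with dotted lines at the 19.7% and 25.3% of all genes. AP-1, HIF target, sterol and mitosis lists lie lowest in 3D and protocadherins and complement highest, and most 2D medians lie near 0.

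Transcripts of the main receptor of CXCL5 were close to absent in all 6 libraries. *Cxcr2* was at 0.155, 0 and 0 CPM in 3D WT and 0, 0 and 0 CPM in the labelled *Cxcl5*-/- libraries, too low to be tested. Receptor protein is not measured by these libraries. The study checked a *Cxcr2* knockout by flow cytometry. It reported that this knockout also reduced spheroid growth and did not induce *Hif1a* and *Myc* in 3D. Of 31 CXC and CC chemokine genes 17 were tested, and 6 rose and 6 fell. *Cxcl3*, another CXCR2 ligand, rose from 4.98, 3.04 and 3.91 CPM to 10.5, 8.55 and 8.82 CPM (log2 fold change 1.22 with an SE of 0.18, edgeR adjusted p 8.76e-05). Among those that fell, *Ccl9*, a monocyte-attracting chemokine, went from 98.7, 87.5 and 99.998 CPM to 30.5, 21.03 and 26.03 CPM. *Csf1*, the macrophage growth factor and not a CXC or CC chemokine gene, fell from 259, 224 and 245 CPM to 85.98, 106 and 101 CPM. *Cxcl10*, an interferon-induced attractant of T cells, fell from 5.33, 5.49 and 5.85 CPM to 2.43, 1.58 and 1.02 CPM, and these decreases had log2 fold changes of −1.88, −1.31 and −1.73, with adjusted p-values by edgeR of 9.15e-08, 1.6e-07 and 0.000122. *Ackr3*, a scavenger receptor for CXCL12, was the only chemokine receptor of 6 tested that passed the test, falling from 156, 123 and 143 CPM to 37.6, 37.5 and 47.8 CPM (log2 fold change −1.78 with an SE of 0.12, edgeR adjusted p 1.1e-07).

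Genes of the oxygen-sensing pathway fell together with *Hif1a*. *Hif1a* (chr12:73901375-73947530, plus strand), which encodes the oxygen-regulated subunit of HIF-1, was at 363, 336 and 407 CPM in 3D WT and 175, 139.99 and 163 CPM in the labelled libraries (log2 fold change −1.21 with an SE of 0.10, edgeR adjusted p 4.13e-07). The 2D groups did not differ by the test, at 211, 215 and 221 and 234, 218 and 221 CPM. Of 13 tested genes of the HIF pathway 8 fell and 2 rose. The prolyl hydroxylase genes *Egln1* and *Egln3*, which are themselves HIF targets, fell by log2 fold changes of −0.76 and −0.82, and *Vhl*, which encodes the ubiquitin ligase subunit that recognises hydroxylated HIF1A, changed by −0.46. In the other direction *Egln2*, another prolyl hydroxylase gene, rose from 31.6, 25.9 and 26.5 CPM to 47.4, 39.4 and 35.9 CPM, and *Hif1an*, which encodes an asparaginyl hydroxylase that blocks HIF transactivation, rose from 39.7, 33.1 and 35.3 CPM to 52.9, 63.97 and 64.7 CPM (log2 fold changes 0.55 and 0.75). None of these had an adjusted p above 0.00273 by edgeR, for *Egln2*. With library totals the calls of *Egln1* and *Vhl* were lost (−0.355 and −0.0652, adjusted p = 0.0596 and 0.578). *Arnt*, the partner of HIF1A, and *Epas1*, which encodes HIF2A, did not pass the test, with log2 fold changes of 0.26 and −0.05. *Arnt* did pass as higher in the blocked fit (0.246, edgeR adjusted p = 0.0472), with at least 10 counts in every sample (0.363) and with library totals (0.667). It also passed without replicate 1 of the labelled group (0.383). *Epas1* turned to 0.168 without that replicate.

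Of 41 tested HIF targets outside glycolysis 33 fell and 1 rose, with a median of −1.09 relative to all genes. The promoters of some of these genes, and of glycolytic genes described next, hold the ACGTG core to which HIF-1 binds, and stretches of them are shown to let the core be seen in its context. Each is printed 5′ to 3′ on the gene's own strand from RefSeq (GRCm38.p6), within the 250 bases before the start site, and capitals mark ACGTG or its reverse complement CACGT, which overlap in CACGTG. *Ero1a*, *Bnip3*, *P4ha2* and *Pgk1* were chosen after their values were seen.
Ldha (chr7:46845647-46845786, plus strand): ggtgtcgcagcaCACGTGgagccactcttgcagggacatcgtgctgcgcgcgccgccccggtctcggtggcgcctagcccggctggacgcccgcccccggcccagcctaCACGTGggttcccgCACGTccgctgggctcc
Pgk1 (chrX:106186925-106186998, plus strand): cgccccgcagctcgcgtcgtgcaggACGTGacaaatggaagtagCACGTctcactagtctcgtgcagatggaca
Ero1a (chr14:45318606-45318660, minus strand): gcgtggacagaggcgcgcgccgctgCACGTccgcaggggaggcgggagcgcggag
Bnip3 (chr7:138909584-138909639, minus strand): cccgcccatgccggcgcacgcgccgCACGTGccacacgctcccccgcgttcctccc
P4ha2 (chr11:54100821-54100875, plus strand): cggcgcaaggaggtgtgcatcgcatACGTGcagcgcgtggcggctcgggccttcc
Bhlhe41 (chr6:145865543-145865598, minus strand): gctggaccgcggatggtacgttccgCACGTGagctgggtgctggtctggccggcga
ACGTG on either strand was found in 15 of 31 HIF targets with a promoter window (48.4%) and in 12 of 25 glycolytic genes (48.0%), against 21.1% of all 11824 tested genes with a window, 23.4% of those that fell and 20.1% of those that rose. Other lists were above the share of all genes too, such as autophagy and lysosome genes (41.4%), the G1 and p53 list (38.5%) and endoplasmic reticulum chaperones (37.5%). The E-box CACGTG was found in 4.44% of the windows of ribosome biogenesis genes against 7.98% of all windows. Cytosolic ribosomal protein genes were below the share of all windows too, with 4 of 59. Nucleotide synthesis genes were above it, with 5 of 25, as were glycolytic genes, with 4 of 25, and autophagy and lysosome genes, with 7 of 29. Among lists linked to MYC, shares of the E-box were thus above that of all windows in some and below it in others. Bases after the start site were not searched, and the part of MYC was not tested. A match is not a binding site, and *Bhlhe41*, which has the core too, was the HIF target that rose.

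*Ero1a*, which encodes an oxidase that drives disulfide formation in the endoplasmic reticulum, was among the most abundant HIF targets, at 2602, 2359 and 2740.1 CPM in 3D WT and 624, 659 and 717 CPM in the labelled libraries (log2 fold change −1.94 with an SE of 0.10, edgeR adjusted p 5.15e-09). *Bnip3*, which encodes a mitophagy receptor of the outer mitochondrial membrane, fell from 1158, 1078 and 1183 CPM to 497, 388 and 429.5 CPM (log2 fold change −1.38 with an SE of 0.11, edgeR adjusted p 2.79e-07). Every WT library was above every labelled library for both genes, which is no added support, since genes were chosen with their values known. *Adm*, which encodes the vasodilator adrenomedullin, dropped from 38.3, 39.01 and 36.9 CPM to 2.81, 2.58 and 4.34 CPM (log2 fold change −3.55 with an SE of 0.43, edgeR adjusted p 1.66e-05). The labelled libraries lay far below every WT library. Among genes of collagen modification, *P4ha2*, a collagen prolyl hydroxylase gene, went from 33.4, 29.1 and 32.7 CPM to 11.3, 10.9 and 13.1 CPM, and *Loxl2*, a lysyl oxidase gene that crosslinks collagen, from 5.89, 5.44 and 5.17 CPM to 1.96, 0.953 and 1.04 CPM (log2 fold changes −1.43 and −2.06, highest adjusted p 2.26e-05 by edgeR, for *Loxl2*). The repressor genes *Bhlhe40* and *Bhlhe41*, which encode closely related clock-linked transcription factors, moved apart. *Bhlhe40* fell from 230.3, 196 and 226 CPM to 83.8, 97.04 and 102 CPM and *Bhlhe41* rose from 36.8, 39.1 and 35.7 CPM to 47.1, 75.7 and 62.8 CPM (log2 fold changes −1.202 and 0.73, adjusted p = 6.14e-07 and 0.000699 by edgeR). *Pdk1*, which encodes a kinase that shuts pyruvate out of the TCA cycle, was a HIF target that did not pass the test (log2 fold change −0.18, adjusted p = 0.0856 by edgeR), but passed at −0.267 without replicate 2 of 3D WT.

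In glycolysis 21 of 26 tested genes fell and 2 rose, with a median of −0.84 relative to all genes. *Pfkp*, a gene of the rate-controlling phosphofructokinase, fell from 443, 454 and 405 CPM to 143, 142 and 157 CPM, and *Eno1*, the enolase gene, from 2919, 2359.7 and 2553 CPM to 1121, 1128 and 1278 CPM. *Gapdh*, whose many pseudogenes could share reads with it, went from 214, 189 and 187 CPM to 54.2, 46.2 and 50.4 CPM. The log2 fold changes were −1.56, −1.15 and −1.97, and the highest adjusted p of these genes was 1.2e-06 by edgeR, for *Eno1*. The enolase isoform of neurons, *Eno2*, and *Pfkfb2*, which encodes an enzyme that sets fructose 2,6-bisphosphate, rose instead, by 0.82 and 0.56 on the log2 scale (highest adjusted p 0.000145 by edgeR, for *Pfkfb2*). Beside glycolysis, 7 of 11 genes of the pentose phosphate pathway fell, among them *Taldo1* at −0.74 and *Tkt* at −0.56 (with library totals −0.180 and no longer past the test, adjusted p = 0.118), whereas *H6pd*, which encodes the glucose-6-phosphate dehydrogenase of the endoplasmic reticulum, rose from 90.6, 72.4 and 85.9 CPM to 202, 200.5 and 206 CPM (log2 fold change 1.29 with an SE of 0.09, edgeR adjusted p 9.59e-08).

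*Myc* fell, and its antagonists moved in both directions. *Myc* (chr15:61985391-61990374, plus strand) was at 34.1, 36.9 and 33.9 CPM in 3D WT and 9.12, 11.4 and 10.7 CPM in the labelled libraries (log2 fold change −1.75 with an SE of 0.12, edgeR adjusted p 8.94e-08). Of the MXD repressors, *Mxd1* fell from 16.6, 12.3 and 16.1 CPM to 5.43, 5.63 and 6.06 CPM and *Mxi1*, a HIF target, from 185, 146 and 173 CPM to 62.04, 70.8 and 70.1 CPM. *Mxd4* rose from 25.96, 28.5 and 23.2 CPM to 173, 156 and 174 CPM, from below *Mxi1* in WT to above it in the labelled libraries in CPM, while *Max* did not pass the test at a log2 fold change of −0.297, but passed at −0.522 without replicate 3 of the labelled group. The changes of *Mxd1*, *Mxi1* and *Mxd4* were −1.395, −1.31 and 2.697 on the log2 scale (highest adjusted p 4.95e-06 by edgeR, for *Mxd1*). *Mlxip*, which encodes the glucose sensor MondoA, rose by 0.92 (SE 0.16, adjusted p = 0.000482 by edgeR).

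Most tested genes of mitosis, replication and histones fell. Of 42 mitotic genes 41 fell and 0 rose, with a median of −0.99 relative to all genes, and *Pttg1*, the securin gene, did not pass the test (log2 fold change −0.21, adjusted p = 0.316 by edgeR, but −0.485 and past the test without replicate 1 of the labelled group). *Anln*, which encodes the contractile ring scaffold anillin, went from 496, 458 and 506 CPM to 148, 149 and 154 CPM, *Ccna2*, the cyclin A gene, from 242, 232 and 252 CPM to 86.3, 80.9 and 86.4 CPM, and *Aurkb*, a gene of the chromosomal passenger complex, from 62.4, 52.3 and 61.6 CPM to 22.1, 19.8 and 20.7 CPM. Their log2 fold changes were −1.697, −1.52 and −1.495, with adjusted p-values of at most 3.3e-08 by edgeR, for *Aurkb*. Among replication genes 32 of 36 fell, for example *Cdc45*, a helicase component, from 58.7, 50.1 and 48.4 CPM to 20.6, 14.5 and 18.7 CPM. Replication-dependent histone genes, whose transcripts lack a poly(A) tail but are kept by total RNA libraries, fell in 29 of 38 and rose in 0. For example *H3c3* was at 278, 216 and 224 CPM in WT and at 133, 63.3 and 76.96 CPM in the labelled libraries (log2 fold change −1.39 with an SE of 0.21, edgeR adjusted p 0.000115), where replicate 1 of the labelled group was the nearest to WT. Of 27 nucleotide synthesis genes 20 fell and 2 rose, among them *Rrm2*, the ribonucleotide reductase subunit gene, from 159.5, 141 and 153 CPM to 61.96, 73.2 and 78.1 CPM, and *Tk1*, the thymidine kinase gene, from 66.3, 54.2 and 54.9 CPM to 25.2, 26.7 and 28.6 CPM (log2 fold changes −1.09 and −1.13, highest adjusted p 8.49e-07 by edgeR, for *Rrm2*).

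The CCAAT box, bound by NF-Y, is common in promoters of cell-cycle genes. It was found on either strand in 68.6% of mitotic and 82.9% of histone gene windows, against 36.6% of all windows, 40.6% of those of genes that fell and 34.5% of those that rose. Other lists had high shares too, such as endoplasmic reticulum chaperones (75.0%).

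A gene that holds cells in G1 fell as well. *Cdkn1a*, which encodes the CDK inhibitor p21, was at 69.7, 67.4 and 66.4 CPM in WT and at 1.06, 4.99 and 5.73 CPM in the labelled libraries (log2 fold change −4.11 with an SE of 0.40, edgeR adjusted p 2.24e-06). In 2D the levels were 9.19, 11.7 and 9.82 CPM in WT and 12.1, 11.9 and 10.8 CPM in *Cxcl5*-/-, so the high level was found in 3D WT alone among these groups, and the interaction had an adjusted p of 6.13e-05 by edgeR. Of 32 G1 cyclin, CDK inhibitor and p53 target genes 20 fell and 6 rose. *Gadd45b*, a stress gene, fell from 40.5, 38.9 and 37.6 CPM to 9.75, 9.24 and 7.98 CPM, and *Ccng1*, a p53 target that encodes cyclin G1, from 434, 418 and 476 CPM to 201, 171 and 173 CPM, while *Gadd45a* rose from 36.4, 39.1 and 37.2 CPM to 95.5, 75.2 and 79.1 CPM. The largest rise of the list was at *Fas*, which encodes a death receptor and is a p53 target too, from 17.6, 19.9 and 16.1 CPM to 88.3, 70.97 and 78.8 CPM. These 4 genes had log2 fold changes of −2.12, −1.28, 1.15 and 2.15, with adjusted p-values of at most 1.99e-06 by edgeR, for *Gadd45a*. Genes of cell death moved in both directions. *Ripk3*, the kinase gene of necroptosis, fell from 12.6, 9.997 and 11.4 CPM to 0.189, 0.26003 and 0.2595 CPM (log2 fold change −5.57 with an SE of 0.41, edgeR adjusted p 1.7e-07), *Bax* fell by −0.97, and the BH3-only genes *Bmf* and *Bcl2l11* rose by 1.32 and 0.79 on the log2 scale (highest adjusted p 0.000166 by edgeR, for *Bcl2l11*).

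Of 79 cytosolic ribosomal protein genes 70 fell and 0 rose, with a median of −0.69 relative to all genes, and 54 of 78 mitochondrial ribosomal protein genes fell while *Mrpl27* rose. *Rps10* was at 501, 419 and 428 CPM in WT and at 236, 165 and 184 CPM in the labelled libraries (log2 fold change −1.204 with an SE of 0.12, edgeR adjusted p 4.13e-06). Many of these genes have processed pseudogenes that could take part of their reads, and processed pseudogenes as a class had 482 of 2196 tested members lower and 162 higher. Of 50 ribosome biogenesis genes 30 fell, for instance *Noc2l* from 88.2, 79.2 and 77.4 CPM to 40.6, 36.9 and 41.1 CPM, but *Ubtf* and *Polr1a*, a factor and a catalytic subunit gene of RNA polymerase I, rose by 0.35 and 0.22 (highest adjusted p of the 3 genes 0.0314 by edgeR, for *Polr1a*). The call of *Polr1a* was lost when replicate 2 or 3 of 3D WT or replicate 3 of the labelled group was left out, at log2 fold changes of 0.153, 0.1595 and 0.165.

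Respiratory chain genes of the nucleus and of the mitochondrial genome are given apart. Nuclear genes of complexes III, IV and V fell in 23 of 35 (65.7% called), and nuclear genes of complex I in 13 of 36 (36.1%), and 0 rose in either list. Of all tested genes 45% were called and 25.3% fell, and of protein-coding genes 53.7% were called and 32.3% fell. The share of complex I genes that fell lies near that of protein-coding genes, and nothing is read from it. *Uqcrfs1*, the Rieske protein gene of complex III, went from 88.6, 83.4 and 82.9 CPM to 56.4, 44.3 and 45.4 CPM (log2 fold change −0.803 with an SE of 0.10, edgeR adjusted p 1.6e-05). Among the 13 protein genes of the mitochondrial genome 6 rose and 2 fell. *mt-Nd4* rose from 39.7, 53.6 and 50.4 CPM to 106, 152 and 155 CPM and *mt-Nd5* from 55.5, 87.5 and 73.9 CPM to 126, 204 and 214 CPM, whereas *mt-Co1*, the most abundant of those named, fell from 6983, 6591 and 7119 CPM to 6134, 3952 and 4340.3 CPM. These log2 fold changes were 1.52, 1.33 and −0.52 (highest adjusted p 0.00484 by edgeR, for *mt-Co1*). The call of *mt-Co1* was lost with library totals (−0.151, adjusted p = 0.190 by edgeR). Its log2 fold change ranged from −0.762 to −0.358 when 1 library at a time was left out. In the TCA cycle 16 of 26 genes fell, among them *Fh1* and *Sdhd* by −0.65 and −0.75, but *Pcx*, which encodes the pyruvate carboxylase that refills oxaloacetate, rose from 45.2, 27.0005 and 38.7 CPM to 222, 193 and 212 CPM (log2 fold change 2.497 with an SE of 0.16, edgeR adjusted p 6.11e-08).

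Of 27 tested genes of sterol synthesis and its control by SREBP2, 23 fell and 0 rose, with a median of −1.07 relative to all genes. The pathway makes cholesterol and isoprenoids from acetyl-CoA, and SREBP2 acts on sterol elements together with NF-Y on CCAAT boxes. These promoters are shown because 16 of the 19 sterol genes with a window held CCAAT (84.2%, against 36.6% of all windows). Histone genes (82.9%) and endoplasmic reticulum chaperones (75.0%) had high shares too. The sterol element searched for, TCACNCCAC, was in 1 of the 19 windows (5.26%, against 0.964% of all) and is not marked. The promoters are printed as above, with CCAAT or its reverse complement ATTGG in capitals, and *Hmgcs1* and *Idi1* were chosen after their values were seen.
Hmgcs1 (chr13:119690104-119690320, plus strand): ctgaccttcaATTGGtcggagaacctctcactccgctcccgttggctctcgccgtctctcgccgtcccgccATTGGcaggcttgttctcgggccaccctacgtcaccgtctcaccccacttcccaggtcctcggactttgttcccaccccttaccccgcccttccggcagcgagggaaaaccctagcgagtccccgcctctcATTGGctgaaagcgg
Msmo1 (chr8:64733617-64733750, minus strand): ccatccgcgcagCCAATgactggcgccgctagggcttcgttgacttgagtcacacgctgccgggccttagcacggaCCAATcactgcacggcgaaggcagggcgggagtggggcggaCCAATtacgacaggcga
Idi1 (chr13:8885536-8885605, plus strand): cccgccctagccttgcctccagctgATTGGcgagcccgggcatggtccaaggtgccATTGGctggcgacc
Mvd (chr8:122443423-122443507, minus strand): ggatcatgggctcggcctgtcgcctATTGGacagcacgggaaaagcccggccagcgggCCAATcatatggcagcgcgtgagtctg
*Hmgcs1*, the HMG-CoA synthase gene, fell from 562, 681 and 569 CPM to 282, 274 and 284 CPM. *Mvd*, a decarboxylase gene of the mevalonate pathway, went from 133, 103 and 109 CPM to 47.7, 41.4 and 44.5 CPM and *Idi1*, the isomerase gene after it, from 154, 179.96 and 155 CPM to 79.4, 65.4 and 75.9 CPM. Their log2 fold changes of −1.11, −1.37 and −1.15 had adjusted p-values of at most 1.12e-06 by edgeR, for *Idi1*. *Srebf2* itself and *Scap*, its escort protein gene, did not pass the test (log2 fold changes −0.12 and 0.24), although *Scap* passed as higher without replicate 1 of 3D WT (0.329), with at least 10 counts in every sample (0.349) and with library totals (0.644).

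Fatty acid genes were less uniform, with 12 of 24 lower and 3 higher. *Acss2*, which encodes the enzyme that makes cytosolic acetyl-CoA from acetate, fell from 517, 441 and 473 CPM to 111, 104 and 129.95 CPM (log2 fold change −2.05 with an SE of 0.10, edgeR adjusted p 6.4e-09), and *Acly*, the ATP citrate lyase gene, from 639.8, 494 and 555 CPM to 244, 229.6 and 256 CPM (log2 fold change −1.21 with an SE of 0.09, edgeR adjusted p 2.79e-07). *Elovl5*, a gene of polyunsaturated fatty acid elongation, rose from 102, 92.4 and 116 CPM to 277, 258 and 244 CPM (log2 fold change 1.33 with an SE of 0.09, edgeR adjusted p 1.07e-07), and *Fasn* did not pass the test at 0.09, but passed as higher with library totals, at 0.490. *Acss2* moved the other way in 2D, where *Cxcl5*-/- was higher by 0.58 on the log2 scale (adjusted p = 0.00231 by edgeR).

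Genes of the amino acid stress response, which ATF4 drives when amino acids run short or unfolded proteins build up, fell in 22 of 27 and rose in 0, with a median of −0.82 relative to all genes. The C/EBP-ATF composite element searched for, TGATGNAAT, is rare: it was found in 3 of 23 windows of the list and in 0.474% of all windows. It was in 0.221% of the windows of genes that fell and in 0.607% of those of genes that rose. The 3 genes of the list that held it are shown, with the element or its reverse complement in capitals. These genes were chosen by that match, after their values were seen.
Gars (chr6:55037945-55038000, plus strand): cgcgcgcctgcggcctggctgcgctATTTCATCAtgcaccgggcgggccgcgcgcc
Aars (chr8:111033704-111033762, plus strand): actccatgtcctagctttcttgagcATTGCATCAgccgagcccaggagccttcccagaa
Nupr1 (chr7:126625548-126625606, minus strand): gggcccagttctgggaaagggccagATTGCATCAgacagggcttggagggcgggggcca
*Gars* and *Aars*, tRNA synthetase genes, fell by −0.83 and −0.53 on the log2 scale, and *Nupr1*, a stress-induced transcription cofactor gene, by −0.49 (highest adjusted p 0.00299 by edgeR, for *Nupr1*). With library totals the calls of *Aars* and *Nupr1* were lost (−0.145 and −0.117, adjusted p = 0.198 and 0.380 by edgeR). *Asns*, which encodes asparagine synthetase, went from 334, 295 and 316 CPM in WT to 137, 112 and 115 CPM (log2 fold change −1.38 with an SE of 0.09, edgeR adjusted p 8.7e-08). *Atf3*, a transcription factor gene that many stresses induce, fell from 31.4, 32.3 and 32.3 CPM to 2.68, 1.32 and 1.51 CPM (log2 fold change −4.12 with an SE of 0.22, edgeR adjusted p 1.14e-08). *Slc7a11*, the cystine importer gene, dropped from 60.3, 74.7 and 67.2 CPM to 26.4, 25.1 and 22.1 CPM (log2 fold change −1.46 with an SE of 0.10, edgeR adjusted p 1.39e-07). In 2D, *Asns* was higher in *Cxcl5*-/- than in WT, by 0.55 (adjusted p = 0.00173 by edgeR), and 6 genes of the list rose and 0 fell there, where 7.03% of all genes were called. Serine and one-carbon genes fell in 15 of 23, with *Mthfd2*, the mitochondrial folate enzyme gene, going from 118, 108 and 107 CPM to 50.2, 46.9 and 50.04 CPM, and *Aldh1l1*, the cytosolic 10-formyltetrahydrofolate dehydrogenase gene, rose from 77.7, 60.6 and 62.4 CPM to 124, 109 and 129 CPM. In glutamine metabolism 14 of 18 fell and *Glul*, which makes glutamine from glutamate, rose from 31.8, 31.02 and 31.2 CPM to 70.4, 77.1 and 63.5 CPM. The highest adjusted p of *Mthfd2*, *Aldh1l1* and *Glul* was 5.01e-05 by edgeR, for *Aldh1l1*, with log2 fold changes of −1.18, 0.85 and 1.17.

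Of 39 glutathione and antioxidant genes 12 fell and 6 rose (46.2% called), and of 18 iron handling genes 6 fell and 4 rose (55.6%). These shares are near the 45% of all tested genes, and nothing is read from the counts. *Hmox1*, which encodes heme oxygenase and is induced by heme and by NRF2, fell from 146, 136 and 164 CPM to 64.4, 61.5 and 59.7 CPM, and *Txn1*, the thioredoxin gene, from 425, 406 and 416 CPM to 214, 139.99 and 159.9 CPM. *Nqo1* and *Txnrd1*, 2 other NRF2 targets, rose from 77.4, 74.98 and 69.3 CPM to 128, 94.2 and 96.4 CPM and from 80.8, 71.99 and 74.4 CPM to 113, 121 and 103 CPM. The log2 fold changes were −1.27 and −1.28 for the genes that fell, and 0.52 and 0.57 for those that rose (highest adjusted p 0.00131 by edgeR, for *Nqo1*). *Slc40a1*, which encodes ferroportin, the only known iron exporter of mammalian cells, rose from 18.5, 20.9 and 22.4 CPM to 128, 138 and 128 CPM (log2 fold change 2.67 with an SE of 0.10, edgeR adjusted p 8.87e-10). The ferritin genes diverged, as *Fth1*, the heavy chain, rose by 0.67 and *Ftl1*, the light chain, fell by −0.48 on the log2 scale (highest adjusted p 0.011 by edgeR, for *Ftl1*). The call of *Ftl1* was lost without replicate 2 of the labelled group, at −0.34, and with library totals, at −0.11.

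The gene with the lowest adjusted p among named genes that fell was *Ptgs2* (chr1:150100031-150108227, plus strand), which encodes the prostaglandin-forming enzyme COX-2. It was at 936, 879 and 1044 CPM in WT and at 61.8, 64.1 and 56.2 CPM in the labelled libraries (log2 fold change −3.97 with an SE of 0.10, edgeR adjusted p 3.1e-11). In 2D it stood at 175, 169 and 181 CPM and 206, 179.7 and 197 CPM, so that WT was far higher in 3D than in 2D and the labelled libraries were lower than either 2D group. AP-1 and immediate early genes, which growth factors and stress switch on within minutes, fell in 16 of 24 and rose in 2. *Jun* went from 118, 94.6 and 97.01 CPM to 14.9, 13.9 and 15.7 CPM (log2 fold change −2.797 with an SE of 0.12, edgeR adjusted p 2.83e-09), and *Ier3* from 287, 224 and 253 CPM to 41.7, 28.5 and 32.1 CPM (log2 fold change −2.901 with an SE of 0.17, edgeR adjusted p 2.89e-08). *Egr1*, a serum-responsive transcription factor gene, was against this trend, rising from 8.96, 9.62 and 8.39 CPM to 15.5, 23.1 and 17.2 CPM (log2 fold change 1.05 with an SE of 0.25, edgeR adjusted p 0.00336). In the rescue table *Jun* changed by −0.61 and the median of the list was −0.26, against −1.247 in this comparison.

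Ligands of the epidermal growth factor receptor fell while the receptor rose. *Areg*, which encodes amphiregulin, was at 55.2, 59.7 and 53.6 CPM in WT and at 1.77, 1.699 and 1.19 CPM in the labelled libraries (log2 fold change −5.18 with an SE of 0.15, edgeR adjusted p 5.85e-11). *Hbegf* and *Btc*, genes of other ligands of this receptor, went from 56.2, 49.03 and 51.4 CPM to 8.69, 8.63 and 8.84 CPM and from 6.13, 6.87 and 7.18 CPM to 1.404, 1.49 and 1.05 CPM (log2 fold changes −2.58 and −2.35, highest adjusted p 5.87e-07 by edgeR, for *Btc*). *Spry2*, which ERK signalling induces and which feeds back on it, fell from 22.1, 18.5 and 16.7 CPM to 3.12, 5.39 and 3.94 CPM (log2 fold change −2.203 with an SE of 0.18, edgeR adjusted p 4.48e-07). *Egfr* rose from 7.31, 6.17 and 8.54 CPM to 23.2, 17.8 and 23.3 CPM (log2 fold change 1.55 with an SE of 0.18, edgeR adjusted p 1.16e-05). All together 16 of 26 genes of the list fell and 3 rose.

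NF-kB genes fell more often than they rose, and interferon and MHC class I genes are given beside them. Of 25 NF-kB subunit and feedback genes 14 fell and 4 rose. *Nfkbia* and *Nfkbiz*, inhibitor genes that NF-kB itself induces, fell from 66.5, 46.6 and 56.6 CPM to 23.2, 18.2 and 22.5 CPM and from 75.1, 68.6 and 71.6 CPM to 32.03, 25.2 and 28.9 CPM (log2 fold changes −1.41 and −1.32, highest adjusted p 1.7e-06 by edgeR, for *Nfkbia*). Of 45 interferon-stimulated genes 17 fell and 6 rose (51.1% called), near the share of all tested genes, and nothing is read from these counts. The IFIT genes were among those that rose. *Ifit3* went from 46.04, 63.04 and 51.9 CPM to 188, 133 and 109 CPM, with replicate 1 the highest, and *Ifih1*, which encodes the RNA sensor MDA5, fell from 17.1, 17.6 and 21.1 CPM to 1.96, 2.05 and 2.92 CPM. Of 20 MHC class I presentation genes 5 rose and 5 fell. *Psmb8*, an immunoproteasome subunit gene, fell from 51.6, 55.8 and 56.3 CPM to 3.39, 1.94 and 5.21 CPM, while *H2-D1* rose from 874, 636 and 781 CPM to 1341, 949.97 and 1097 CPM and *Nlrc5*, the transactivator gene of the class I genes, from 72.01, 70.9 and 72.4 CPM to 131, 153 and 132 CPM. These 5 genes had log2 fold changes of 1.42, −3.01, −3.95, 0.56 and 0.95 (highest adjusted p 0.00634 by edgeR, for *H2-D1*). *H2-D1* shares reads with other class I genes, so its count is uncertain.

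Complement genes rose in 11 of 17 tested, with 1 lower and a median of 1.46 relative to all genes. *C3*, the central component on which the pathways converge, went from 17.3, 16.9 and 14.5 CPM in WT to 162, 204 and 196 CPM (log2 fold change 3.53 with an SE of 0.14, edgeR adjusted p 1.24e-09). *C4b*, which encodes the C4 component, rose from 4.96, 5.56 and 7.25 CPM to 122, 118 and 115 CPM (log2 fold change 4.32 with an SE of 0.26, edgeR adjusted p 3.05e-08), though reads of the closely similar *C4a* could be split with it. *Clu*, which encodes the complement-binding chaperone clusterin, rose from 5.51, 4.81 and 5.31 CPM to 35.5, 25.6 and 27.6 CPM (log2 fold change 2.503 with an SE of 0.20, edgeR adjusted p 4.08e-07). In the rescue table *C4b* and *Clu* were higher in *Cxcl5*-/- by 2.13 and 1.53, whereas *C3* differed by 0.17 with an adjusted p of 0.384 by edgeR.

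Clustered protocadherins rose in most members. These are single-pass adhesion proteins encoded in tandem arrays on chromosome 18, with a beta and a gamma cluster expressed here. Of 20 tested beta genes 18 rose and 0 fell, and of 21 gamma genes 18 rose and 0 fell, with medians of 1.42 and 1.68 relative to all genes. *Pcdhb9* rose from 0.814, 1.35 and 1.254 CPM to 11.8, 10.99 and 10.2 CPM (log2 fold change 3.27 with an SE of 0.35, edgeR adjusted p 5.67e-06) and *Pcdhgb5* from 0.407, 0.841 and 0.867 CPM to 4.64, 3.99 and 4.18 CPM (log2 fold change 2.598 with an SE of 0.31, edgeR adjusted p 1.57e-05). Levels of both genes were low. Gamma transcripts share their last exons, and beta genes resemble each other, so the counting could split reads among them. In 2D the medians of both lists were below 0, at −0.28 and −0.14.

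Junction and keratin genes fell at several points. *Cldn1*, which encodes the tight junction protein claudin-1, was at 18.3, 15.02 and 16.8 CPM in WT and at 0, 0.05201 and 0.0611 CPM in the labelled libraries (adjusted p = 1.37e-08 by edgeR). *Krt18* and *Krt8*, the keratin pair of simple epithelia, fell from 384, 317 and 339 CPM to 63.2, 52.9 and 59.1 CPM and from 648, 485 and 574 CPM to 156, 134 and 150.4 CPM, and *Krt19*, a ductal keratin gene, from 50.3, 36.5 and 44.4 CPM to 0, 0 and 0.397 CPM. The log2 fold changes of *Krt18* and *Krt8* were −2.57 and −1.95 (highest adjusted p with *Krt19* 1.42e-06 by edgeR, for *Krt19*). No fold is given for *Cldn1* and *Krt19*, since the labelled libraries were at or close to 0. These 3 keratin genes were the only ones to fall among 8 tested ductal markers, of which 2 rose. *Vim*, which encodes the mesenchymal intermediate filament vimentin and was among the most abundant transcripts, fell from 4061, 3523 and 3843 CPM to 679, 639 and 782 CPM (log2 fold change −2.44 with an SE of 0.10, edgeR adjusted p 1.2e-09), and *S100a4*, another mesenchymal marker, by −1.24. Of 15 tested EMT factor genes 5 rose and 6 fell. Some adhesion genes rose, such as *Ctnnd1*, which encodes p120-catenin, from 105, 104 and 107 CPM to 256, 402 and 352 CPM, and *Jup*, the plakoglobin gene, from 59.3, 43.8 and 54.7 CPM to 121, 134 and 129 CPM (log2 fold changes 1.68 and 1.28, highest adjusted p with *S100a4* 4.02e-05 by edgeR, for *S100a4*).

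Matrix protein and protease genes rose more often than they fell, collagen genes did not. Of 35 matrix protein and proteoglycan genes 13 rose and 7 fell, of 25 matrix protease and inhibitor genes 13 rose and 5 fell, and of 30 collagen genes 8 rose and 9 fell. *Fn1*, the fibronectin gene, rose from 2847, 2880.1 and 3400.3 CPM to 5698, 8655 and 8007 CPM (log2 fold change 1.29 with an SE of 0.16, edgeR adjusted p 2.34e-05), and *Nid2*, which encodes a basement membrane linker, from 1.86, 1.89 and 2.66 CPM to 44.8, 55.5 and 45.6 CPM (log2 fold change 4.502 with an SE of 0.22, edgeR adjusted p 4.61e-09). *Mmp2*, the gelatinase A gene, rose from 1.45, 0.864 and 1.27 CPM to 23.1, 25.97 and 28.7 CPM (log2 fold change 4.42 with an SE of 0.18, edgeR adjusted p 1.31e-09). *Mmp9*, the gelatinase B gene, fell from 27.5, 15.6 and 19.6 CPM to 4.62, 6.67 and 6.23 CPM (log2 fold change −1.84 with an SE of 0.34, edgeR adjusted p 0.000597), so the gelatinases moved apart. Genes of plasminogen activation moved apart too, as *Plau*, the urokinase gene, rose from 14.1, 15.4 and 15.7 CPM to 47.3, 50.1 and 48.4 CPM and its receptor gene *Plaur* fell from 40.8, 30.5 and 33.7 CPM to 9.15, 5.95 and 7.33 CPM (log2 fold changes 1.69 and −2.23, highest adjusted p 1.07e-07 by edgeR, for *Plaur*). The median of the protease list, 0.57 relative to all genes, turned to −0.46 with no filter on low counts. *Lama3*, a laminin chain gene, fell by −2.05, but *Lamb3*, another laminin chain gene, rose from 0.155, 0.163 and 0.184 CPM to 1.86, 2.08 and 2.12 CPM (highest adjusted p 0.000521 by edgeR, for *Lamb3*).

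Growth factor and morphogen genes changed member by member. The YAP and TEAD targets *Ccn2* and *Ccn1*, which encode related matricellular proteins, moved in opposite directions. *Ccn2* (chr10:24595442-24598683, plus strand) rose from 17.9, 19.5 and 19.8 CPM to 190.05, 189 and 205 CPM (log2 fold change 3.35 with an SE of 0.09, edgeR adjusted p 3.11e-11) and *Ccn1* fell from 82.3, 77.3 and 85.1 CPM to 29.02, 24.998 and 23.8 CPM (log2 fold change −1.65 with an SE of 0.10, edgeR adjusted p 4.16e-08), and 9 of 28 genes of that list rose and 12 fell. *Inhba*, which encodes the activin A subunit, fell from 43.8, 50.6 and 47.3 CPM to 4.12, 5.34 and 6.41 CPM, and *Inhbb*, the activin B subunit gene, rose from 129, 119 and 121 CPM to 262, 233 and 269.6 CPM (log2 fold changes −3.16 and 1.05, highest adjusted p 5.17e-06 by edgeR, for *Inhbb*). Of 21 angiogenic factor genes 11 fell and 8 rose. *Pgf*, the placental growth factor gene, fell from 54.2, 36.2 and 43.8 CPM to 2.76, 1.96 and 3.02 CPM, and *Angpt1*, which encodes the TIE2 agonist angiopoietin-1, rose from 353, 448 and 376 CPM to 1209, 998 and 1143 CPM (log2 fold changes −4.11 and 1.51, highest adjusted p 1.02e-07 by edgeR, for *Angpt1*). Among Wnt pathway genes 14 of 29 rose and 8 fell. *Wnt7b*, a ligand gene, fell from 91.8, 57.9 and 81.5 CPM to 12.2, 11.3 and 12.8 CPM, and *Fzd5*, a receptor gene, rose from 18.1, 19.04 and 19.8 CPM to 75.6, 79.9 and 87.1 CPM (log2 fold changes −2.67 and 2.09, highest adjusted p 2.27e-08 by edgeR, for *Wnt7b*).

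Autophagy and lysosome genes rose in 13 of 38 and fell in 7 (52.6% called). This share is near the 45% of all tested genes, and nothing is read from the counts. *Ulk1*, the kinase gene that starts autophagy, rose from 12.5, 10.3 and 9.68 CPM to 19.8, 31.3 and 22.8 CPM, *Gaa*, the acid glucosidase gene, from 53.9, 39.3 and 53.4 CPM to 92.9, 96.7 and 94.3 CPM, and *Atp6v0d1*, a proton pump subunit gene, from 55.96, 43.3 and 50.3 CPM to 103, 95.5 and 97.6 CPM. *Sqstm1*, which encodes the cargo receptor p62, fell from 498, 438 and 511 CPM to 376, 281 and 344 CPM. The log2 fold changes were 1.19, 0.95, 0.99 and −0.53 (highest adjusted p 0.00156 by edgeR, for *Sqstm1*). The call of *Sqstm1* was lost with library totals (−0.151, adjusted p = 0.161). Chaperone genes of the cytosol and mitochondria fell in 18 of 26, including *Hspa9* from 560.3, 668 and 520.2 CPM to 298, 264 and 295 CPM (log2 fold change −1.03 with an SE of 0.10, edgeR adjusted p 2.76e-06), and proteasome genes in 17 of 31 (54.8%) with 0 higher. Of protein-coding genes 32.3% fell, and 48.1% of their most abundant class, so nothing is read from the proteasome count.

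The labelled cell type was checked against marker lists. Of 16 ductal markers 8 were tested, 3 fell and 2 rose, and *Epcam* and *Cdh1* were at or near 0 in all 6 libraries, while the summed level ranged from 3065 to 3285 CPM in WT and from 2186 to 3133 CPM in the labelled libraries. Fibroblast markers summed to between 654 and 707 CPM in WT and to between 1288 and 1398 CPM in the labelled libraries, with 5 of 10 tested markers higher and 3 lower. *Fap*, *Pdpn*, *Thy1* and *Postn* were at or near 0 in both groups. *Pdgfra* (chr5:75152292-75198215, plus strand), which encodes the platelet-derived growth factor receptor alpha, rose from 20.4, 23.6 and 20.1 CPM to 194, 225 and 223 CPM (log2 fold change 3.33 with an SE of 0.10, edgeR adjusted p 7.36e-11), and *Acta2*, the smooth muscle actin gene, from 10.2, 7.57 and 9.85 CPM to 45.3, 37.4 and 45.6 CPM (log2 fold change 2.21 with an SE of 0.13, edgeR adjusted p 2.51e-08). The proteoglycan genes *Dcn* and *Lum* fell instead, from 35.5, 38.5 and 39.1 CPM to 4.13, 1.59 and 2.73 CPM and from 7.48, 4.93 and 8.21 CPM to 3.298, 2.55 and 2.72 CPM (log2 fold changes −3.74 and −1.27, highest adjusted p 0.0208 by edgeR, for *Lum*). The call of *Lum* was lost without replicate 1 or 3 of 3D WT and without replicate 2 or 3 of the labelled group, where the log2 fold change stayed between −1.252 and −1.147. Macrophage markers summed to between 42.7 and 47.3 CPM in WT and to between 43.4 and 63.3 CPM in the labelled libraries, with 1 of 6 tested markers higher and *Adgre1*, *Itgam* and *Tyrobp* at or near 0. Endothelial markers summed to at most 3.04 CPM in every library. Among acinar and endocrine markers 2 of 4 tested rose, and *Pdx1*, which encodes a pancreatic transcription factor, made up most of the level and rose from 19.5, 14.2 and 15.5 CPM to 41.6, 39.8 and 41.95 CPM (log2 fold change 1.33 with an SE of 0.11, edgeR adjusted p 6.75e-07).

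Some genes were present in 1 group and at the floor in the other. The floor was taken as 3 counts, and 33 genes (0.154% of those tested) had at most 3 counts in every 3D WT library and at least 30 in every labelled library, while 26 (0.122%) had the reverse. *Inmt*, which encodes a methyltransferase of indolamines, had 0, 0 and 0 counts in WT and 1883, 1472 and 1682 counts in the labelled libraries, at least 441-fold higher. *Chil1*, which encodes a chitinase-like secreted protein, had 0, 0 and 0 against 1523, 609 and 1291 counts and was at least 296-fold higher. *Igf1*, the insulin-like growth factor gene, and *Bmp7*, a bone morphogenetic protein gene, were at least 50.2-fold and 37.3-fold higher. In the other direction, *Fabp5* (chr3:10012548-10016607, plus strand), which encodes a fatty acid binding protein, had 800, 550 and 788 counts in WT and 0, 0 and 0 in the labelled libraries, at least 296-fold lower. *Hgf*, the hepatocyte growth factor gene, had 525, 443 and 631 against 1, 0 and 1 counts and was at least 222-fold lower. *Gstm5*, a glutathione transferase gene, and *Syk*, a tyrosine kinase gene, were at least 63.4-fold and 15.7-fold lower.

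These switched genes differed in how they behaved in the other libraries. Of the 26 absent from the labelled libraries, 18 were at the floor in 2D *Cxcl5*-/-, 7 in 2D WT and 5 in both. In the rescue *Cxcl5*-/- libraries 23 were at the floor. There 20 were called lower by edgeR, against 24.3% of all genes tested in that table. All 26 were lower there without overlap, but the share of all genes without overlap in these 2 against 2 libraries was not computed. *Fabp5* and *Hgf* for example had 0 counts in every *Cxcl5*-/- library in 2D and in the rescue table. Of the 33 absent from 3D WT, 20 were at the floor in 2D *Cxcl5*-/-, 25 in 2D WT and 18 in both. By edgeR, 19 of the 33 were called higher in rescue *Cxcl5*-/- than in rescue WT, against 17.6% of all genes tested there. Without overlap 27 were higher there and 2 lower, and here too the share of all genes without overlap was not computed. Only 2 of the 33 were at the floor in rescue WT. *Inmt* had 19 and 6 counts in rescue WT and 166 and 117 in rescue *Cxcl5*-/-, so the WT libraries of the tables differed in this gene. The 2 genes that went the other way there were *Pde1b*, which encodes a phosphodiesterase, with 44 and 27 counts in rescue WT and 20 and 20 in rescue *Cxcl5*-/-, and *Ano2*, a chloride channel gene, with 34 and 31 and 0 and 3 counts, *Ano2* being named after its values were seen. The sizes of these sets have no test here, and the fold bounds cover counting error only.

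**Figure D3:**
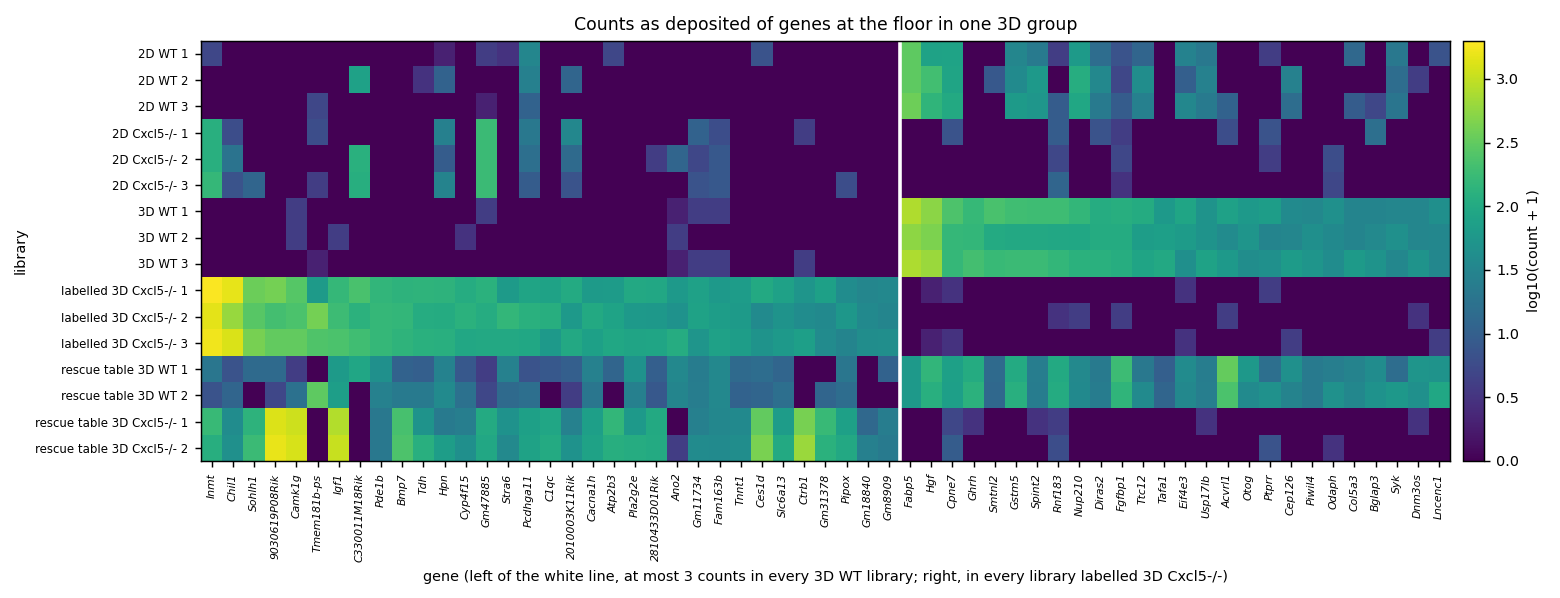
Counts as deposited, as log10(count + 1), of the 33 genes with at most 3 counts in every 3D WT library (left of the white line) and of the 26 with at most 3 counts in every library labelled 3D *Cxcl5*-/- (right), in 16 libraries. Genes on the right are dark in the *Cxcl5*-/- libraries of the rescue table too, while most genes on the left show some counts in WT of the rescue table.

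Short genes fell and long genes rose more often. With protein-coding genes split by exonic length into 5 classes of equal size, 353 rose and 950 fell of 2725 in the shortest class, and 871 rose and 682 fell of 2725 in the longest, with medians of −0.24 and 0.06. The same order held in the rescue table, from −0.31 to 0.24, and in 2D the medians of the classes lay between 0 and 0.0073. By level, 48.1% of the most abundant class fell. Antisense transcripts rose in 219 of 1203 tested and fell in 67, and genes of the TEC biotype, provisional models of the annotation, rose in 441 of 1334 and fell in 61, against 2912 higher and 4404 lower of 13622 protein-coding genes. Since the counting's use of strand is not given in the sources used here, reads from a gene and its antisense partner cannot be told apart. The part of transcript length and of RNA composition in the other results was not tested.

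Genes of chromosome 3 were lower as a set. Of its 638 protein-coding genes 57.7% fell and 8.15% rose, against 31.1% that fell on the other chromosomes, and 76.5% had a negative log2 fold change, against 55.0%. The median was negative in all 11 windows of 10 Mb with at least 20 genes, between −0.68 and −0.47. Over the whole chromosome the median log2 fold change of the genotype was −0.503 in 3D, −0.00496 in 2D and −0.116 in the rescue table. Relative to 2D WT and to all protein-coding genes, chromosome 3 genes were offset by between 0.272 and 0.303 on the log2 scale in the 3 WT libraries of 3D, and by between −0.127 and −0.0789 in the labelled libraries, while chromosome 2 genes were offset by between −0.212 and −0.191 in 3D WT and between −0.0208 and −0.0117 in the labelled libraries. The 3D WT libraries therefore stood apart from 2D WT on these chromosomes. Chromosome 1 genes were offset by between 0.145 and 0.174 in 3D WT and by between 0.0584 and 0.0959 in the labelled 3D libraries. The median log2 fold change of the genotype on this chromosome was negative in 3D, in 2D and in the rescue table (−0.189, −0.244 and −0.232). Without genes of chromosome 3, chosen after seeing the data, 3955 genes rose and 5119 fell, and the part of gene dosage in the results was not tested.

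**Figure D4:**
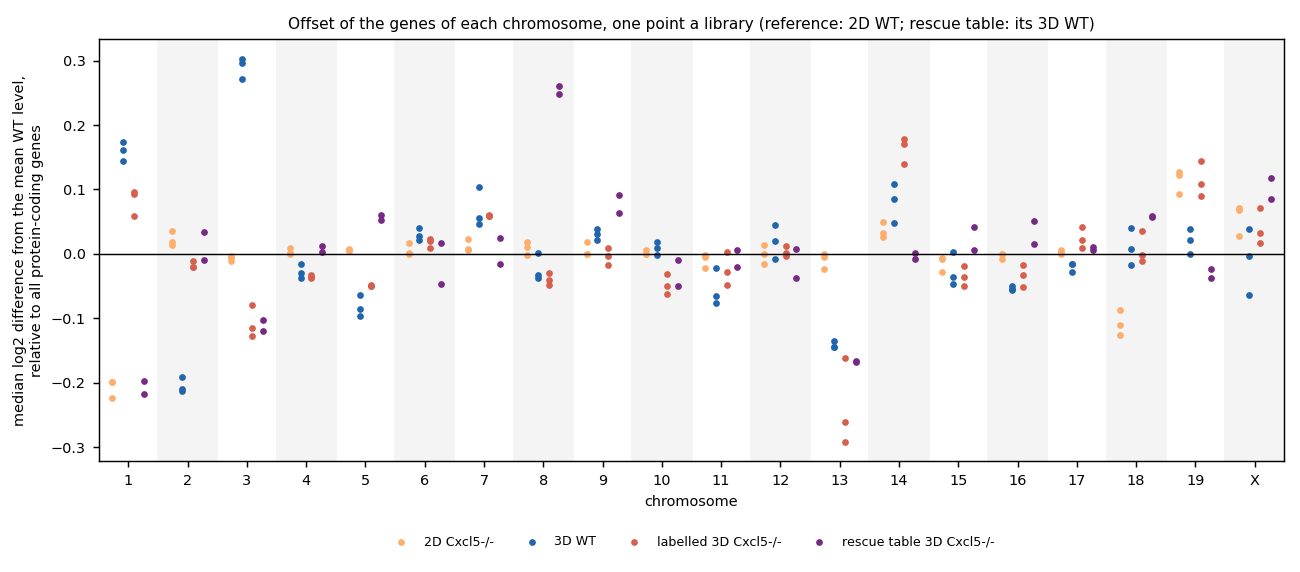
Median log2 difference of the protein-coding genes of each chromosome, relative to all protein-coding genes, 1 point a library. Shown are 2D *Cxcl5*-/-, 3D WT, labelled 3D *Cxcl5*-/- and rescue *Cxcl5*-/-, and the WT libraries used as reference are not drawn. The reference is the mean of 2D WT for the 2D and 3D libraries and the mean of rescue WT for the rescue libraries. The 3D WT points stand highest on chromosome 3 and lowest on chromosome 2. On chromosome 1 the labelled 3D points lie below 3D WT, and the 2D and rescue *Cxcl5*-/- points lie below the 0 line of their WT reference.

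In 2D the genotypes differed at far fewer genes, with 825 higher and 677 lower in *Cxcl5*-/- (7.03% of those tested, 3.86% higher and 3.17% lower). The genotype effect differed between 3D and 2D at 5807 genes by the interaction test (27.2%), with 2376 higher and 3431 lower in 3D. Of the 4218 genes that rose in 3D, 515 also rose in 2D (12.2%) and 70 fell there, and of the 5397 that fell, 437 also fell in 2D (8.1%) and 100 rose. *Pdgfra* rose in 3D and fell in 2D, from 22.5, 24.2 and 22.4 CPM to 8.31, 9.49 and 9.51 CPM (log2 fold change −1.34, adjusted p = 8.97e-07 by edgeR), with an interaction of 4.66 (adjusted p = 3.36e-10). *Aldh1l2*, which encodes the mitochondrial formyltetrahydrofolate dehydrogenase, fell in 3D from 63.3, 56.5 and 56.6 CPM to 20.8, 19.7 and 23.2 CPM and rose in 2D from 15.2, 15.1 and 15.2 CPM to 32.9, 30.7 and 29.2 CPM (interaction −2.49, adjusted p = 5.49e-08 by edgeR). *Krt19*, *Hgf*, *Fabp5* and *Nt5e*, the CD73 gene, fell in both cultures.

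The same contrast in the rescue table, with other libraries, called 41.9% of 28730 genes. Among the 21058 genes tested in both tables, 23.7% were higher and 21.8% lower in rescue *Cxcl5*-/-. Of the genes that rose here, 4207 were tested there and 2918 were also higher (69.4%), with 74 lower (1.76%). Of the genes that fell, 5361 were tested and 3212 were also lower (59.9%), with 188 higher (3.51%). Log2 fold changes correlated across genes at Pearson r = 0.593 and Spearman rho = 0.672, as a description, since genes share libraries. Among the genes described above, *Hmgcs1* changed by −2.13 against −1.11 here, *Ero1a* by −2.55 against −1.94, and *Ccna2* by −1.77 against −1.52. Genes called in opposite directions included *Dcn*, at 59.4 and 63.4 CPM in rescue *Cxcl5*-/- against 3.99 and 5.04 CPM in rescue WT, and *Lum*, at 86.7 and 86.9 CPM against 2.21 and 3.02 CPM, both of which fell here. The p53 target *Btg2* fell here by −1.42 and was higher there by 0.96 (adjusted p = 1.99e-07 and 0.00285 by edgeR). The difference between the tables was not tested, since they were scaled and fitted separately.

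**Figure D5:**
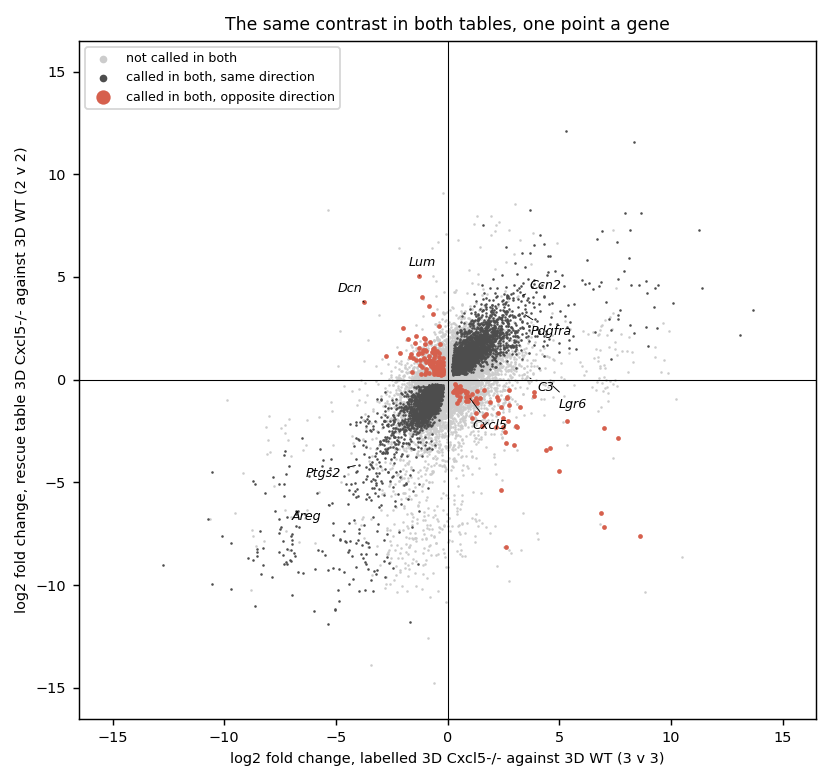
Log2 fold changes of genes tested in both tables, with the 3D comparison on the x axis and the rescue table on the y axis, 1 point a gene. Dark points were called in the same direction in both tables, and red points, 262 genes, in opposite directions. *Ccn2*, *Pdgfra*, *Ptgs2* and *Areg* lie far out in the same direction, *Cxcl5*, *Dcn* and *Lum* lie in opposite quadrants, and *C3* and *Lgr6* lie near 0 on the y axis.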

How the data were processed

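RNA was measured by sequencing of total RNA from Panc02 cells. Per the labels and the study's methods, libraries were made with TruSeq Stranded Total RNA Gold, and the authors aligned read pairs to mm10 with HISAT2 and deposited raw gene counts obtained with StringTie. The annotation release, and how StringTie output was turned into counts, are not given in the sources used here. Library totals lay between 46973008 and 66197643 counts in the 6 libraries compared, so counting error is small for all but low genes. The rows of the 2D and 3D table (12 libraries) and of the rescue table were used as deposited, and 0 rows lacked a gene ID.

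Here counts were filtered with filterByExpr, scaled by TMM and tested with edgeR 4.0.16 (R 4.3.3), quasi-likelihood, on all libraries of a table, with Benjamini-Hochberg adjustment over all genes tested and a threshold of 0.05. The SE is the log2 fold change divided by the square root of F. DESeq2 1.42.0, other scalings and filters, a replicate block and leaving out each library were alternatives. The fit was tested on simulated data. Gene positions came from GENCODE M21 (95.7% of genes matched) and promoters from RefSeq (GRCm38.p6). The members and lists were chosen with earlier results of these data known. Named genes were, for each list, up to 4 with the largest change in each direction among those past the threshold, with no overlap of the groups and a mean count of at least 50, and the largest changes over all genes and over the interaction. Genes that did not pass the test, *Bhlhe40*, *Vhl*, *Hmgcs1*, *Idi1* and the ATF4 and HIF targets said to be so in the text, were named after their values were seen. Some results are not reported here.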

Additional observations from a re-analysis of the deposited data

Results flagged for a closer look

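The effect of the genotype differed between 3D and 2D, by the edgeR interaction, at 5807 genes, of which 70 were higher in 3D and lower in 2D and 100 the reverse. The effect in 3D minus that in 2D was, on the log2 scale, −8.955 for *Ces2g*, −6.6719 for *Rem2* and 7.617 for *Mfsd4a*. Of the 16 genes named for their interaction over all genes, 13 had a group at the floor, where the fitted value depends on the prior count and is no bound. It was −2.6341 for *Acss2*, −2.4929 for *Aldh1l2*, −2.4235 for *Ccn1*, −2.0238 for *Ccng1*, −1.9268 for *Asns* and −1.3102 for *Tap1*, and these effects were negative in 3D and positive in 2D. It was 0.6462 for *Imp4*, 0.9367 for *Sdf2l1*, 1.1511 for *Col3a1*, 1.9294 for *Ifit1* and 4.6629 for *Pdgfra*, with the opposite signs. The calls of *Imp4* and *Sdf2l1* in 3D were lost when replicate 2 or 3 of 3D WT or replicate 1 of the labelled group was left out, and that of *Imp4* also without replicate 3 of the labelled group.

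Between the tables, 262 genes were called in opposite directions in 3D, and this difference was not tested. The log2 fold changes in this comparison and in the rescue table were 0.9058 and −0.7805 for *Cxcl5*, −1.4223 and 0.9559 for *Btg2*, 4.5859 and −3.3441 for *Cfap54*, −3.7364 and 3.7633 for *Dcn*, −1.3107 and 1.2623 for *Fst*, and −1.2682 and 5.0516 for *Lum*.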

How the results depend on the processing

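Scaling by library totals moved the counts in 3D to 7671 higher and 2445 lower, and a log2 fold change limit of 1 left 2096 and 1675. Leaving out 1 library at a time gave between 3428 and 4030 genes higher and between 4285 and 5948 lower in 3D, between 402 and 495 of 677 lower in 2D, and between 3760 and 4163 of 6995 lower in the rescue table. No filter gave 4441 and 4224, and only the 6 libraries compared gave 4375 and 4530. The replicate block gave 4279 and 5456, and deviations of same-numbered libraries correlated at 0.0809, 0.0689 and 0.0118, so the numbers were not taken to pair the libraries. With no filter the median relative to all genes turned to −1.29 for chemokine receptors, 0.249 for the methionine cycle, 0.038 for endoplasmic reticulum chaperones, −0.462 for matrix proteases, −1.15 for acinar and endocrine markers and −2.23 for macrophage markers. Without chromosome 3, chosen after seeing the data, the methionine cycle was at 0.1998. Of 160 genes in the text 140 kept their direction and side of the threshold under every alternative, and the genes that reversed had not passed the test. With library totals *Epas1* was at 0.369, *Max* at 0.093, *Pdk1* at 0.217, *Pttg1* at 0.153 and *Srebf2* at 0.293, and *Epas1* was at 0.0376 with no filter and 0.056 with at least 10 counts in every sample. Leaving out 1 library ranged from −0.232 to 0.168 for *Epas1*, −0.0496 to 0.186 for *Fasn*, −0.485 to 0.0117 for *Pttg1* and −0.299 to 0.0631 for *Srebf2*. The cause was not tested. Depth limits genes near the floor, and folds are given as bounds for the genes at the floor in every library of 1 group.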
